A study of Mus musculus with 6 samples.

Results

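The levels of 8 growth plate regulators were followed in whole bone: the cartilage transcription factors Sox9, Sox5 and Sox6, the hedgehog genes Ihh, Ptch1 and Gli1, the parathyroid hormone receptor gene Pth1r and the fibroblast growth factor receptor gene Fgfr3. The 8 genes were taken by symbol from the 54532 genes of the table, and each matched 1 gene identifier. The bone came from 3 MIR29cb2-/- and 3 WT samples, all labelled as C57BL/6J females aged 16 weeks. MIR29cb2-/- (called MIR29cb2-KO here) marks loss of 1 microRNA cluster, whose products are miR-29b (from its second gene copy, Mir29b-2) and miR-29c. The labels name the tissue only as bone, so which bone was taken, how much marrow it held and how far the deletion reaches are unknown here. Nothing says that the libraries come from separate animals, and p-values therefore reflect only how far these libraries vary, some of which may be technical.

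Long bones lengthen at the growth plate, a cartilage disc in which chondrocytes proliferate, enlarge and give way to bone. Sox9 switches on cartilage matrix genes together with Sox5 and Sox6, which are close relatives of each other. Enlarging chondrocytes release Indian hedgehog, the product of Ihh, which binds the receptor Patched encoded by Ptch1 and frees Smoothened to activate the GLI factors. Ptch1 and Gli1 are themselves hedgehog targets, and hedgehog also sustains parathyroid hormone-related protein, which acts through Pth1r to delay enlargement. Fgfr3 restrains chondrocyte proliferation. Several of these genes also work outside cartilage: Pth1r in osteoblasts, Sox6 in red cell precursors and muscle.

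The microRNAs of the deleted cluster share 1 seed, the bases that pair with targets, and are shown to define the site searched for in the 8 genes. The sequences are RefSeq's (GRCm38.p6), written 5′ to 3′, with the seed (bases 2 to 8) in capitals.
mmu-miR-29b-3p: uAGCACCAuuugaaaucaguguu
mmu-miR-29c-3p: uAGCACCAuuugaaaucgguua
The complement of the seed, TGGTGCT, was looked for on the transcribed strand of annotated 3′ untranslated regions (UTRs). It occurred once each in Ptch1 and Sox5 and in no annotated 3′ UTR of the other 6 genes. Among tested genes with an annotated 3′ UTR, 15.4% of 11667 held it in their longest one. The longest 3′ UTR was 3205 bases in Ptch1 and 4839 in Sox5, against a median of 1124 over those genes. Both matches are shown with their flanks and with the 7 matching bases in capitals.
Ptch1, minus strand of chr13:63511503-63511509: ccagaggtatccccgTGGTGCTtccaaggg
Sox5, minus strand of chr6:143831488-143831494: ctagagatcaattgcTGGTGCTggcagagt
The match in Ptch1 begins at base 24 of the 3′ UTR and that in Sox5 at base 1770. A match is a run of letters and not a measured site. Neither gene was higher in MIR29cb2-KO bone, as their values below show, and whether the microRNAs act on either gene was not tested.

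Levels are in FPKM, which divides reads by exon length and by a scaling value for each library. Genes of different length can thus be set side by side. Of the 8 genes, 7 were lower in every MIR29cb2-KO library than in any WT library, and Sox6 was not. Among all genes with a mean of at least 0.1 FPKM, 14.1% were lower without overlap in this way. The MIR29cb2-KO mean over the WT mean was 0.108 for Sox9, 0.223 for Ihh, 0.306 for Sox5, 0.314 for Pth1r, 0.323 for Fgfr3, 0.371 for Gli1, 0.588 for Ptch1 and 0.942 for Sox6. The main test was limma on log2(FPKM + 1) over the 13619 genes with a mean of at least 1 FPKM, with Benjamini-Hochberg adjustment and a threshold of 0.05. Of the 8, Sox6, Ihh, Pth1r, Ptch1 and Fgfr3 reached that mean, and 1 of them, Fgfr3, passed as lower, where 3.82% of all genes tested did. Ihh lay just inside the filter, with a mean of 1.11 FPKM over the 6 libraries, and Sox9 just outside it at 0.964. Genes with a mean under 1 FPKM in MIR29cb2-KO bone enter that test only through their WT level. Among them are Ihh (0.406), Fgfr3 (0.939) and, on lists below, Cdon (0.491), Panx3 (0.737) and several markers named where they are counted.

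**Figure D1:**
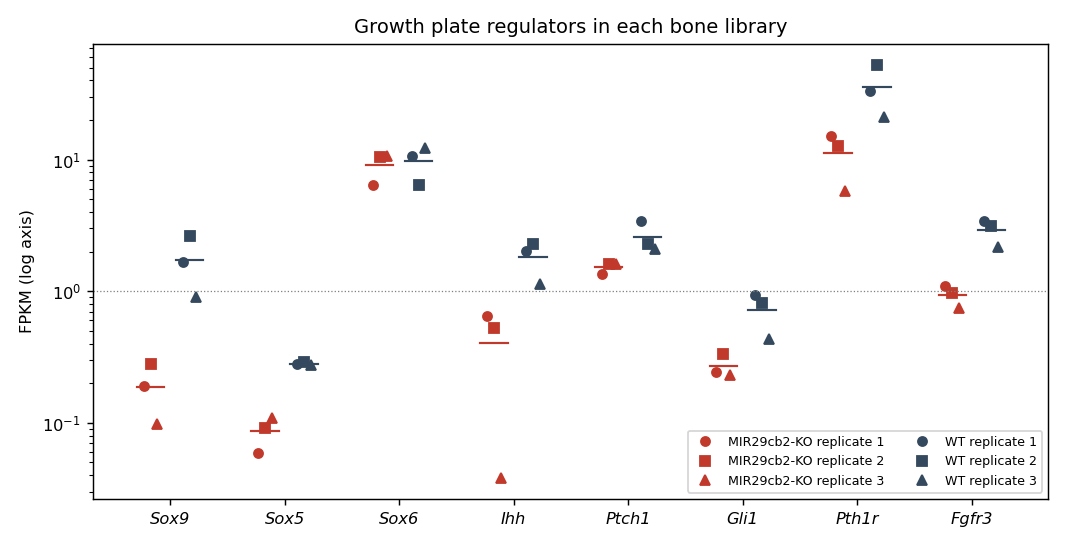
FPKM (log axis) of the 8 genes in each library, MIR29cb2-KO left of WT, with a symbol per replicate and a bar at the group mean; the dotted line marks 1 FPKM. The groups are apart for 7 genes and overlap for Sox6, and the lowest point is Ihh in MIR29cb2-KO replicate 3, at 0.0379 FPKM.

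The libraries behind these values differed in ways beyond genotype. Whole reads could be recovered from the FPKM values, giving 16727111 to 17523713 reads per MIR29cb2-KO library and 17585591 to 20118034 per WT library. MIR29cb2-KO replicate 1 and WT replicate 2 stood apart, with FPKM totals of 487102 and 489576 against 355787 to 404994 in the others. Without both, the log2 changes of the 7 lower genes kept their sign (-0.93 for Sox9, -0.22 for Sox5, -1.01 for Ihh, -0.50 for Ptch1, -0.38 for Gli1, -1.52 for Pth1r and -1.01 for Fgfr3), and none of the tested genes passed. Mature microRNAs are not captured by this kind of library. The cluster's host transcript A330023F24Rik was at 2.51, 3.25 and 4.08 FPKM in MIR29cb2-KO and at 0.197, 0.153 and 0.136 FPKM in WT libraries (limma adjusted p = 0.00676, higher in MIR29cb2-KO). With the deleted interval unknown, this level is no check of the genotype labels.

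Markers of bone and cartilage were present in every library. The 6 chondrocyte markers, Col2a1 and Acan among them, summed to 4.73 to 18.9 FPKM in MIR29cb2-KO and 127 to 175 FPKM in WT libraries. None of the 6 was at 0 throughout, and all 5 that were tested fell. Here and below, a listed gene is said to have fallen where it passed the main test as lower. Of all genes tested, 3.82% passed in that way. Acan (0.913), Hapln1 (0.82) and Matn3 (0.509) had MIR29cb2-KO means under 1 FPKM. They entered the test only through their WT level, so their fall is no independent support. The 8 osteoblast markers summed to 685 to 1460 FPKM in MIR29cb2-KO and 1620 to 3010 FPKM in WT libraries, and 2 fell, Alpl and Sp7. An unadjusted p under 0.05 by limma was reached by 7 of the 8, where 20.6% of all genes tested reached it. In whole bone, fewer cells of a type and less RNA per cell cannot be told apart. The part of these marker differences in the results for the 8 genes was not tested.

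Because 3 of the 8 genes lie under 1 FPKM, where adding 1 before the log hides most of a fold change, 2 further fits are given. With the filter at 0.1 FPKM, limma passed 1 of the 8 genes as lower, again Fgfr3, against 2.18% of 20827 genes. The other fit was limma's voom on the recovered reads with that same filter, an alternative chosen after seeing the data. By voom, 4 of the 8 passed as lower, Sox9, Sox5, Pth1r and Fgfr3, against 4.59% of 20014 genes. Sox5, at a mean of 0.0864 FPKM in MIR29cb2-KO bone, entered both of these fits only through its WT level.

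**Figure D2:**
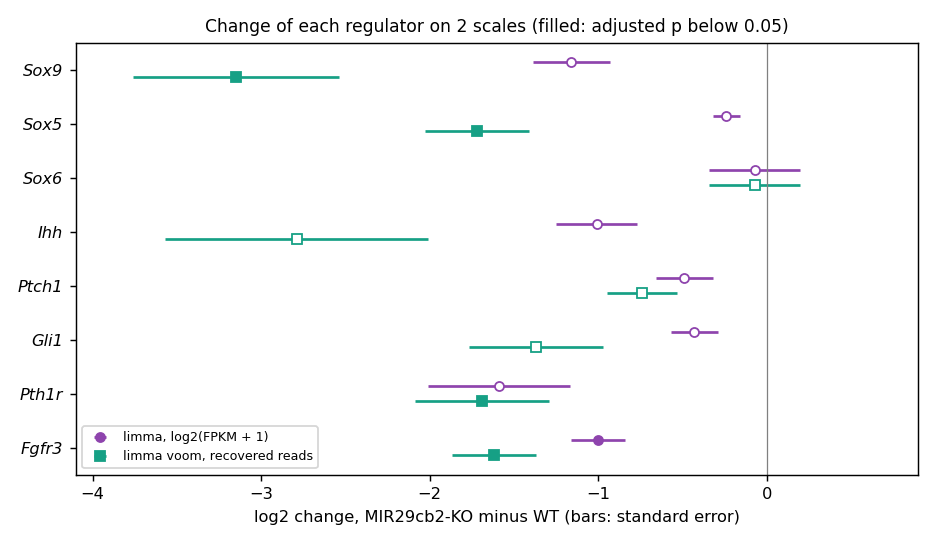
Log2 change (MIR29cb2-KO minus WT) with standard error for each gene, by limma on log2(FPKM + 1) and by limma voom on recovered reads, both with genes of at least 0.1 FPKM; filled symbols passed at 0.05 over all genes. Sox9 stands at -1.16 on the first scale and -3.15 on the second, and Sox6 at -0.07 on both.

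Among the transcription factors, Sox9 had the lowest ratio of the 8 genes. The gene (mm10 chromosome 11, 112782224 to 112787760, plus strand) has 4135 exonic bases. It stood at 0.19, 0.278 and 0.0978 FPKM in MIR29cb2-KO replicates 1 to 3, against 1.68, 2.64 and 0.898 FPKM in WT replicates 1 to 3. The highest MIR29cb2-KO library lay below the lowest WT library, and both groups were spread several-fold within themselves. Behind the group means of 0.188 ± 0.09 in MIR29cb2-KO and 1.74 ± 0.872 FPKM in WT bone (SD, n = 3) were 40 and 423 reads. The log2(FPKM + 1) change of -1.16 gave an exact permutation p of 0.1, the smallest that 3 libraries against 3 allow (two-sided). In voom the log2 change was -3.15 ± 0.61 (SE, adjusted p = 0.0232), while limma with the 0.1 FPKM filter gave an adjusted p of 0.0529.

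The level of Sox9 could be set beside that of Col2a1, the main cartilage collagen and a Sox9 target. Col2a1 fell to 9.92 ± 4.73 FPKM in MIR29cb2-KO, against 96.4 ± 13.4 FPKM in WT bone (SD, n = 3; log2 change -3.27, limma adjusted p = 0.010). The FPKM of Sox9 divided by that of Col2a1 was 0.0145, 0.0229 and 0.0218 in MIR29cb2-KO and 0.0203, 0.0241 and 0.00923 in WT libraries. The ratios overlapped, with a two-sided exact permutation p of 0.7 (n = 3 per group). It is 1 of 7 such ratios that were chosen after the values were seen, and their adjusted p-values were 0.175 or more.

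Sox5 was the least abundant of the 8 genes in WT bone and its WT values were the most even. Its 14376 exonic bases spread over chromosome 6, 143828425 to 144781977, minus strand. Levels were 0.0587, 0.0919 and 0.109 FPKM in MIR29cb2-KO libraries and 0.28, 0.292 and 0.274 FPKM in WT libraries. The groups were far apart relative to their spread (0.0864 ± 0.0253 in MIR29cb2-KO and 0.282 ± 0.00944 FPKM in WT, SD, n = 3, from 64 and 236 reads). On log2(FPKM + 1) the change was only -0.24 (exact permutation p = 0.1). In voom it was -1.72 ± 0.31 (adjusted p = 0.0178). An antisense gene, Sox5os1, shares 1330 exonic bases with Sox5 and was listed at 0 in all libraries.

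Sox6 behaved unlike its partners. Its locus is chromosome 7, 115470872 to 116038796, minus strand, with 14832 exonic bases. MIR29cb2-KO libraries held 6.45, 10.4 and 10.6 FPKM and WT libraries 10.6, 6.43 and 12.2 FPKM. Each group had 1 low library, MIR29cb2-KO replicate 1 and WT replicate 2, the same pair that stood apart in FPKM totals. The means were 9.16 ± 2.35 in MIR29cb2-KO and 9.72 ± 2.97 FPKM in WT (SD, n = 3), from 6999 and 8348 reads. The log2 change was -0.07 (limma adjusted p = 0.925), with a 95% confidence interval of -0.69 to 0.56. It was -0.10 without both libraries that stood apart.

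The markers of red cell precursors, a cell type that uses Sox6 outside cartilage, were high in both groups. The 8 erythroid markers summed to 25700 to 45500 FPKM in MIR29cb2-KO and 26300 to 55200 FPKM in WT libraries, with a median log2 change of 0.03. By limma 0 of the 8 passed, 0 had an unadjusted p under 0.05, and 0 passed by voom. Skeletal muscle markers, by contrast, summed to 1740 to 2560 FPKM in MIR29cb2-KO and 3450 to 6170 FPKM in WT libraries, and 4 of 7 fell. All 7 had an unadjusted p under 0.05 by limma. Which cells carry the Sox6 reads was not tested.

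Of the 16 other SOX genes on the list, 5 were tested and 1 fell, Sox18, a factor of endothelial cells (9.29 ± 1.92 in MIR29cb2-KO and 20.0 ± 3.82 FPKM in WT, SD, n = 3; log2 change -1.03, limma adjusted p = 0.0336). The list's median log2 change was -0.43, against 0.06 over all genes tested. By voom 3 of 9 passed as lower, Sox18, Sox7 and Sox8. Genes under the 1 FPKM filter, other than the 8, are named here and below after their values were seen. Of these, Sox8, Foxa2, Foxa3, Hhip, Scube1, Pthlh and Fgfr4 had means under 0.1 FPKM in MIR29cb2-KO bone. They entered the voom fit only through their WT level. Sox8, a close relative of Sox9, stood at 0.0937 ± 0.0368 in MIR29cb2-KO and 0.863 ± 0.237 FPKM in WT (SD, n = 3; voom log2 change -3.12, adjusted p = 0.0119). Sox17 and Sox4 had log2 changes of -0.43 and -0.48 and did not pass (limma adjusted p = 0.187 and 0.522). Of the 16, 4 were at 0 in every library.

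The other chondrocyte transcription factors were read the same way. Of 15 on the list, 9 were tested and 1 fell, Mef2c, which drives chondrocyte enlargement (5.27 ± 1.16 in MIR29cb2-KO and 9.77 ± 1.32 FPKM in WT, SD, n = 3; log2 change -0.79, limma adjusted p = 0.0474). The median log2 change was -0.24. Foxc1 had a log2 change of -0.69 and Runx2 of -0.24, and neither passed (limma adjusted p = 0.0661 and 0.448). By voom 5 of 15 passed as lower, namely Mef2c, Foxc1, Gli3, Foxa2 and Foxa3.

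Ihh, the hedgehog ligand of the growth plate, had the widest spread relative to its mean in MIR29cb2-KO bone. It sits on chromosome 1, 74945315 to 74951672, minus strand, with 3048 exonic bases. Levels were 0.653, 0.528 and 0.0379 FPKM in MIR29cb2-KO libraries, the last from 2 reads, and 2.02, 2.3 and 1.13 FPKM in WT libraries. All MIR29cb2-KO libraries lay below all WT libraries, and MIR29cb2-KO replicate 3 lay far below its own group. The means of 0.406 ± 0.325 in MIR29cb2-KO and 1.82 ± 0.614 FPKM in WT (SD, n = 3) rest on 63 and 326 reads. The log2(FPKM + 1) change of -1.01 ± 0.25 (SE) did not pass (limma adjusted p = 0.0687, 95% confidence interval -1.60 to -0.42). In voom the change was -2.79 ± 0.78 (adjusted p = 0.0776).

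Ihh is made by enlarging chondrocytes, whose collagen is encoded by Col10a1, set beside it here after the values were seen. Col10a1 shared the low value of MIR29cb2-KO replicate 3, with 15.3, 10.7 and 0.129 FPKM in MIR29cb2-KO and 53.0, 70.2 and 63.4 FPKM in WT libraries. Its log2 change of -3.39 did not pass (limma adjusted p = 0.0868). Acan, the main cartilage proteoglycan, was at 0.977, 1.69 and 0.0696 FPKM in MIR29cb2-KO and at 10.4, 11.3 and 11.0 FPKM in WT libraries, so the same library was lowest again. Without MIR29cb2-KO replicate 3 the log2 change of Ihh was -0.80 (limma adjusted p = 0.157). Of the 10 genes listed for enlarging chondrocytes, all tested, 3 fell (Panx3, Alpl and Mef2c), with a median log2 change of -1.18. An unadjusted p under 0.05 by limma was reached by 7 of the 10. Ihh divided by Col10a1 was 0.0428, 0.0494 and 0.293 in MIR29cb2-KO and 0.0381, 0.0328 and 0.0178 in WT libraries. That ratio was higher in every MIR29cb2-KO library (exact permutation p = 0.1, n = 3, and 0.175 adjusted over the 7 ratios). Its value in MIR29cb2-KO replicate 3 rests on only 2 reads of Ihh and 7 of Col10a1.

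Ptch1, which encodes the hedgehog receptor, had the ratio closest to 1 among the 7 genes whose groups were apart. The gene covers chromosome 13, 63508328 to 63573598, minus strand, with 14185 exonic bases. MIR29cb2-KO libraries held 1.35, 1.61 and 1.62 FPKM and WT libraries 3.43, 2.27 and 2.09 FPKM. MIR29cb2-KO replicate 3, the lowest library for Ihh, was the highest of its group for Ptch1. The means were 1.53 ± 0.151 in MIR29cb2-KO and 2.6 ± 0.723 FPKM in WT (SD, n = 3), from 1113 and 2166 reads. The log2 change of -0.49 ± 0.17 (SE) did not pass (limma adjusted p = 0.153), nor did the voom change of -0.74 (adjusted p = 0.0834).

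Gli1, the transcription factor most often read as a sign of hedgehog activity, sits on chromosome 10, 127329882 to 127341974, minus strand, with 4995 exonic bases. Levels were 0.242, 0.333 and 0.231 FPKM in MIR29cb2-KO libraries and 0.933, 0.81 and 0.433 FPKM in WT libraries. The groups were apart, with WT replicate 3 closest to the MIR29cb2-KO libraries. The means were 0.269 ± 0.0562 in MIR29cb2-KO and 0.725 ± 0.261 FPKM in WT (SD, n = 3), from 69 and 214 reads. The log2(FPKM + 1) change was -0.43 (exact permutation p = 0.1), and the voom change of -1.37 ± 0.4 (SE) did not pass (adjusted p = 0.0854). Gli1 shares 62 exonic bases with Arhgap9 on the other strand, a gene at 38.9 FPKM in MIR29cb2-KO and 29.9 FPKM in WT bone. The use of strand in counting is not given, so reads in that overlap cannot be assigned.

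Other genes of the hedgehog pathway were grouped by role, and the roles were not tested against each other. Among 8 receptors and co-receptors, 4 were tested and 2 fell. They were the co-receptor genes Gas1 (2.47 ± 0.557 in MIR29cb2-KO and 8.06 ± 1.83 FPKM in WT, SD, n = 3; log2 change -1.38, limma adjusted p = 0.0167) and Cdon (0.491 ± 0.118 in MIR29cb2-KO and 1.59 ± 0.327 FPKM in WT, SD, n = 3; log2 change -0.79, limma adjusted p = 0.0408). Smo, which encodes Smoothened, had 4.55, 4.23 and 3.79 FPKM in MIR29cb2-KO and 7.02, 5.61 and 5.68 FPKM in WT libraries, a log2 change of -0.45 that did not pass (limma adjusted p = 0.0945). The median of this list was -0.78, and by voom 3 of 7 passed as lower, Gas1, Cdon and Hhip.

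Hhip, a hedgehog-binding inhibitor and hedgehog target, stood at 0.0399, 0.0506 and 0.0191 FPKM in MIR29cb2-KO and at 0.642, 0.277 and 0.385 FPKM in WT libraries (17 and 232 reads, voom log2 change -3.48, adjusted p = 0.0152). Every MIR29cb2-KO library lay below every WT library.

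Inside the cell, 5 of 11 transducers were tested by limma and 0 passed, with a median log2 change of -0.03 and 0 at an unadjusted p under 0.05. By voom 2 of 10 passed as lower, Gli3, the main hedgehog repressor, and Evc2, a protein of the ciliary base. Gli3 stood at 0.139 ± 0.0216 in MIR29cb2-KO and 0.447 ± 0.133 FPKM in WT (SD, n = 3; voom log2 change -1.65, adjusted p = 0.0285). The broadly used members Prkaca, Gsk3b and Spop had log2 changes of -0.19, 0.14 and -0.08, with limma adjusted p-values of 0.512, 0.715 and 0.795. Of 7 genes for other ligands and their release, Disp1 was the only one tested, with a log2 change of -0.12 (limma adjusted p = 0.767 and unadjusted p above 0.05). By voom 1 of 5 passed as lower, Scube1, and Shh was at 0 in all 6 libraries.

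**Figure D3:**
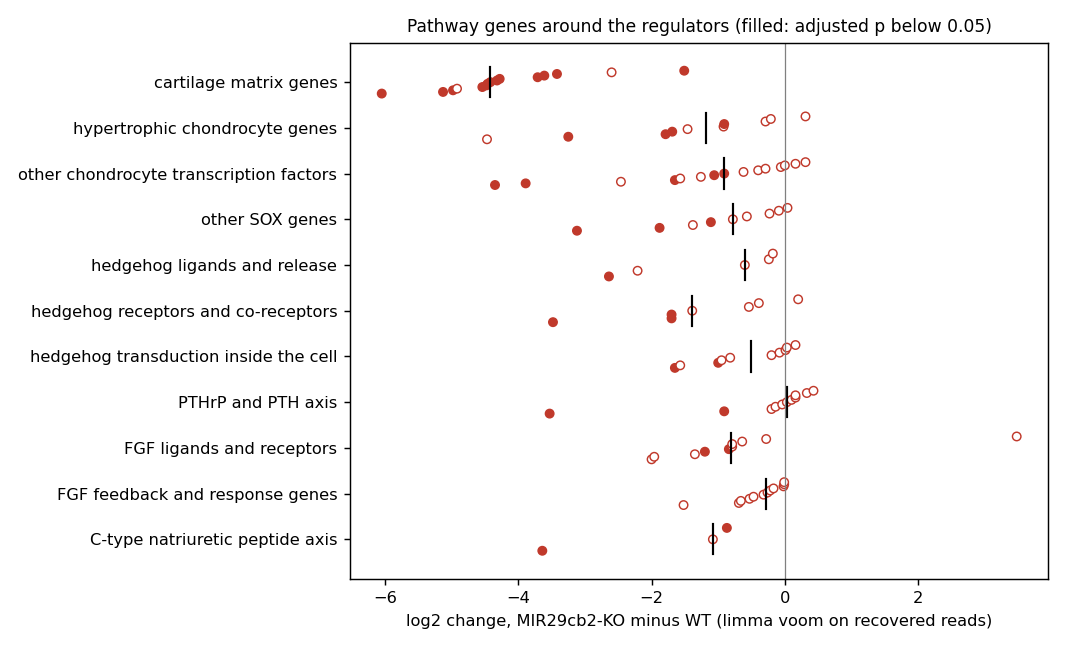
Log2 change (MIR29cb2-KO minus WT, limma voom on recovered reads, genes of at least 0.1 FPKM) of the genes of 11 lists around the 8 regulators; each point is a gene, filled where it passed at 0.05, and the bar is the list median. Cartilage matrix genes lie farthest to the left, with a median of -4.42, and the point on the far right is Fgf23. Foxa3 has no reads in MIR29cb2-KO, so its position depends on the small constant that voom adds to every read count and is no measured fold.

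Pth1r was the most abundant of the 8 genes in WT bone. Its 2925 exonic bases lie on chromosome 9, 110722085 to 110747145, minus strand. Levels were 15.2, 12.6 and 5.77 FPKM in MIR29cb2-KO libraries and 33, 52.7 and 21.2 FPKM in WT libraries. The groups were apart, and replicate 3 was lowest in each. The means were 11.2 ± 4.89 in MIR29cb2-KO and 35.6 ± 15.9 FPKM in WT (SD, n = 3), from 1672 and 6116 reads. The log2 change of -1.59 ± 0.41 (SE) did not pass (limma adjusted p = 0.0782, 95% confidence interval -2.56 to -0.61), while voom gave -1.69 ± 0.4 (adjusted p = 0.0449). Pth1r shares 95 exonic bases with the muscle gene Myl3 on the other strand, whose mean was 2.62 FPKM in MIR29cb2-KO and 6.51 FPKM in WT bone, and reads of that overlap cannot be assigned.

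Osteoblasts also express Pth1r, and it was set beside their collagen gene Col1a1 (222 ± 105 in MIR29cb2-KO and 469 ± 87.2 FPKM in WT, SD, n = 3). The FPKM of Pth1r divided by that of Col1a1 was 0.0445, 0.0852 and 0.0328 in MIR29cb2-KO and 0.0585, 0.118 and 0.0538 in WT libraries. These ratios overlapped (two-sided exact permutation p = 0.4, n = 3). The ligand gene Pthlh, which encodes parathyroid hormone-related protein, had 3 reads over the MIR29cb2-KO libraries and 48 over the WT libraries (0, 0.0355 and 0.0714 against 0.45, 0.633 and 0.445 FPKM). It passed by voom (adjusted p = 0.0220), and Pth was at 0 in all libraries. Of 15 genes listed for this axis, 11 were tested and 1 fell, Mef2c, which is also counted on both lists of chondrocyte genes above, while the median log2 change was 0.02. Gnas, which encodes the G protein subunit used by the receptor, stood at 3.35 ± 0.898 in MIR29cb2-KO and 2.5 ± 0.736 FPKM in WT (SD, n = 3) and did not pass (limma adjusted p = 0.502).

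Fgfr3 was the member that passed the main test, which it entered through its WT level. It is found on chromosome 5, 33721674 to 33737068, plus strand, with 7158 exonic bases, of which 998 are shared with the antisense G630022F23Rik (mean 0.00528 FPKM in MIR29cb2-KO and 0.00471 FPKM in WT). Levels were 1.1, 0.971 and 0.751 FPKM in MIR29cb2-KO libraries and 3.4, 3.13 and 2.18 FPKM in WT libraries. All MIR29cb2-KO libraries lay below all WT libraries. The gap between the groups was wider than the range of the MIR29cb2-KO group and narrower than that of the WT group. The means were 0.939 ± 0.175 in MIR29cb2-KO and 2.9 ± 0.638 FPKM in WT (SD, n = 3), from 344 and 1220 reads. The log2(FPKM + 1) change was -1.0 ± 0.17 (SE, limma adjusted p = 0.0269, 95% confidence interval -1.39 to -0.61). In voom it was -1.62 ± 0.25 (adjusted p = 0.0112).

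The direction of Fgfr3 held in every alternative run, and its call was lost in 5 of the 6 fits that left out 1 library. The limma adjusted p was 0.0632 without MIR29cb2-KO replicate 1, 0.102 without MIR29cb2-KO replicate 2 and 0.0692 without MIR29cb2-KO replicate 3. It was 0.1 without WT replicate 1, 0.0653 without WT replicate 2 and 0.0322 without WT replicate 3. Without both libraries that stood apart it was 0.0797, at a log2 change of -1.01.

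Of 14 other fibroblast growth factor ligands and receptors, 5 were tested and 3 fell, namely Fgfr1, Fgfr2 and Fgf1, with a median log2 change of -0.62. Among the other receptor genes, Fgfrl1 did not pass (log2 change -0.26, limma adjusted p = 0.306), and Fgfr4, under the filter, did not pass by voom (adjusted p = 0.104). Fgfr1, the receptor of osteoblasts and enlarging chondrocytes, fell to 3.76 ± 0.622 FPKM in MIR29cb2-KO, against 8.7 ± 1.72 FPKM in WT (SD, n = 3; log2 change -1.02, limma adjusted p = 0.0276). Fgfr2 fell to 2.14 ± 0.271 FPKM in MIR29cb2-KO, against 3.82 ± 0.197 FPKM in WT (SD, n = 3; log2 change -0.62, limma adjusted p = 0.0359). The ligand gene Fgf1 had a log2 change of -0.72 (limma adjusted p = 0.0490). The FPKM of Fgfr3 divided by that of Fgfr1 was 0.252, 0.255 and 0.241 in MIR29cb2-KO and 0.361, 0.315 and 0.324 in WT libraries, apart in every library (exact permutation p = 0.1, n = 3, and 0.175 adjusted over the 7 ratios).

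Other members of the pathway did not pass or lay under the filter. Fgf23, the phosphate-lowering hormone of osteocytes, stood at 1.56, 0.728 and 0.605 FPKM in MIR29cb2-KO and at 0, 0.169 and 0.214 FPKM in WT libraries, from 89 and 13 reads. It was higher in every MIR29cb2-KO library and did not pass by voom (adjusted p = 0.0686). Of 13 feedback and response genes, 9 were tested by limma and 0 passed, with 3 at an unadjusted p under 0.05. Their median log2 change was -0.22. By voom 12 were tested and 0 passed, and Spry4 was not among the 12, as its reads were not recovered as whole. The 9 tested by limma include the inhibitors Spry4 (log2 change -0.59, limma adjusted p = 0.0866), Spry1 (-0.58, adjusted p = 0.130) and Dusp6 (-0.49, adjusted p = 0.212). On the natriuretic peptide side, which opposes Fgfr3 in cartilage, the receptor gene Npr2 had a log2 change of -0.68 (limma adjusted p = 0.0581) and passed as lower by voom (log2 change -0.87, adjusted p = 0.0436). Prkg2, the kinase that relays this signal, stood at 0.124, 0.225 and 0.0538 FPKM in MIR29cb2-KO and at 1.74, 2.01 and 0.939 FPKM in WT libraries (voom log2 change -3.64, adjusted p = 0.0130).

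**Figure D4:**
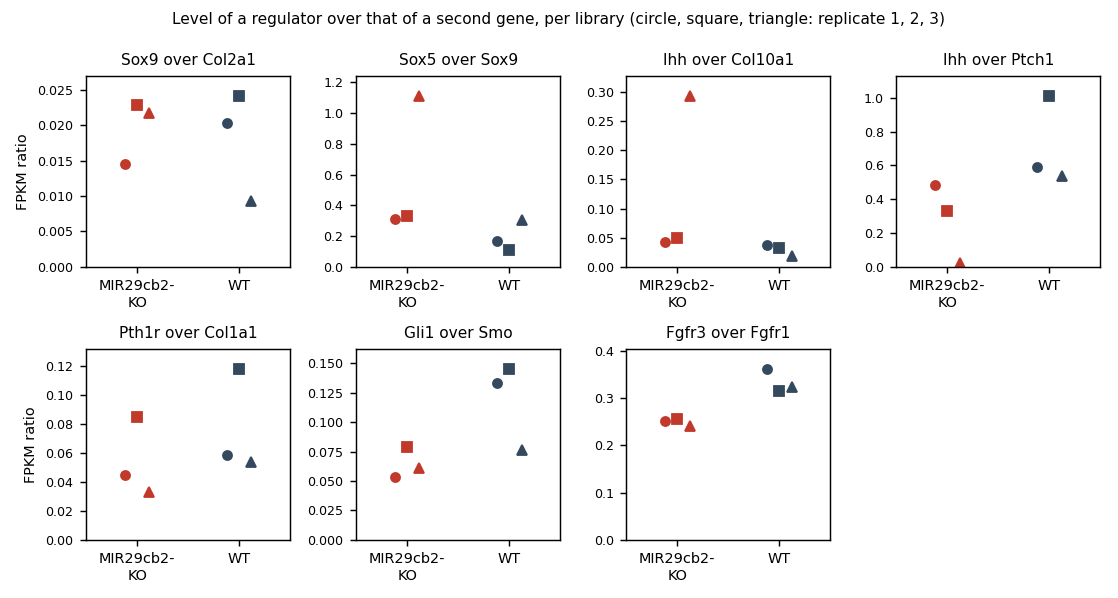
FPKM of a regulator divided by that of a second gene in each library, MIR29cb2-KO left of WT, a symbol per replicate and every axis from 0. The groups are apart for Sox5 over Sox9, Ihh over Col10a1, Ihh over Ptch1 and Fgfr3 over Fgfr1, and overlap for Sox9 over Col2a1, Pth1r over Col1a1 and Gli1 over Smo.

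The order of the 8 genes by level differed between the groups. In MIR29cb2-KO bone Pth1r (5.77 to 15.2 FPKM) and Sox6 (6.45 to 10.6) came first and overlapped, followed by Ptch1 (1.35 to 1.62) and Fgfr3 (0.751 to 1.1), which did not. Ihh (0.0379 to 0.653), Gli1 (0.231 to 0.333), Sox9 (0.0978 to 0.278) and Sox5 (0.0587 to 0.109) closed that order, each overlapping its neighbour. In WT bone Pth1r (21.2 to 52.7 FPKM) lay above Sox6 (6.43 to 12.2) without overlap. Fgfr3 (2.18 to 3.4), Ptch1 (2.09 to 3.43), Ihh (1.13 to 2.3) and Sox9 (0.898 to 2.64) followed and overlapped. Gli1 (0.433 to 0.933) overlapped Sox9, and Sox5 (0.274 to 0.292) lay below all others. By mean, Ptch1 stood above Fgfr3 in MIR29cb2-KO and below it in WT bone, and Gli1 above Sox9 in MIR29cb2-KO and below it in WT bone, where in each case the WT ranges overlapped.

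The protein-coding gene with the most similar profile over the 6 libraries was named for each tested member by Pearson's r of log2(FPKM + 1). It was Spp1 for Pth1r (r = 0.9985), Cyp4v3 for Fgfr3 (r = 0.9978), Fbxo42 for Sox6 (r = 0.9967), Plscr4 for Ihh (r = 0.9965) and Limch1 for Ptch1 (r = 0.9938). Spp1 encodes osteopontin, a bone matrix protein. These r are descriptions over 6 libraries that share the split by genotype and the 2 libraries that stand apart, and many genes come close to them.

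The gene markers of other cell types gave the setting of these levels. Cartilage matrix genes passed as lower in 13 of 14 tested members, where 3.82% of all genes tested did. Their median log2 change was -3.14. Adipocyte, tendon and fibroblast, smooth muscle and skeletal muscle markers were lower as well, with 4 of 5, 5 of 5, 3 of 3 and 4 of 7 tested markers passing. Osteocyte markers passed as lower in 3 of 5, osteoclast markers in 1 of 4 and endothelial markers in 2 of 5. Marrow stromal markers did so in 1 of 5, Schwann cell markers in 2 of 3 and B cell markers in 2 of 6. Among the genes in these counts, Acan, Hapln1, Matn3, Ucma, Plin1, Tnmd, Scx, Dpt, Myh11 and Pdpn had MIR29cb2-KO means under 1 FPKM. They entered the test only through their WT level. Neutrophil markers passed as higher in 2 of 6, where 1.34% of all genes tested did, and summed to 18100 to 22600 FPKM in MIR29cb2-KO and 9100 to 15700 FPKM in WT libraries. Of 4 tested megakaryocyte markers 0 passed by limma, with 0 at an unadjusted p under 0.05 and 0 by voom. The part of these cell types in the levels of the 8 genes was not tested.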

How the data were processed

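RNA was sequenced from bone of 3 MIR29cb2-KO and 3 WT samples, grouped by title. The authors deposited FPKM values for 54532 genes. Bowtie 0.12.2 and mm10 are named in the submitters' processing notes. No source used here names the counter, the annotation, the strand setting or the scaling. Identifiers were matched to GENCODE M21 (54495 matched), which is on the same build.

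FPKM multiplied by exon length gave whole reads in 96.9% of 29600 genes above 0 in any library (tolerance 0.01 reads). Those reads give the depth, and they cover counting error only. Voom was run only on genes with whole reads and gave no value for the rest, Spry4 and Fgf1 among them. No 2 libraries were alike within counting error.

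Values were tested as log2(FPKM + 1) with limma 3.58.1 in R 4.3.3 (trend on expression, Benjamini-Hochberg adjustment). Fold changes of low genes are understated on it. Members under the filter were tested by a two-sided exact permutation test with scipy 1.17.1. The limma fit on log2(FPKM + 1) was tested on simulated data with known changes, and voom was not. The alternatives cover pseudocount, filter, scaling, variance model, weights, replicate block, voom, exon length and libraries left out. The members, lists and alternatives were chosen with earlier results of these data known. Named genes are the members and list genes past the threshold or with the 3 smallest p. Others were chosen after their values were seen (those under the filter, Fgfrl1, Col10a1 and Col1a1). Figures used matplotlib 3.10.9. A gene on the hedgehog receptor list is not reported here by name.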

Additional observations from a re-analysis of the deposited data

How the results depend on the processing

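Over the alternatives run, the log2 changes of Sox9, Sox5, Ihh, Pth1r, Ptch1, Gli1 and Fgfr3 stayed negative. Ptch1 and Sox6 passed under none of 19 alternatives, and Gli1 under none of the 3 that tested it. Sox6 ranged from -0.31 to 0.14, and leaving out 1 library turned its sign without WT replicate 1 (0.01), without WT replicate 3 (0.10) and without MIR29cb2-KO replicate 1 (0.14).

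The count of genes past the threshold was 703 (183 higher and 520 lower), of the 8 members 1, and of the other pathway list genes 22. With no filter these counts were 143, 0 and 7. With array weights 3354 genes and 3 members passed. With each library's exon length trend removed 1206 genes and 3 members passed. By voom with the 0.1 FPKM filter, chosen after seeing the data, the counts were 1137, 4 and 34. Without both libraries that stood apart they were 239, 0 and 8. Leaving out 1 library gave 62 to 418 genes, 0 to 1 members and 5 to 14 list genes. The cause was not tested.

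The call of Fgfr3 was lost with no filter (log2 change -1.0, adjusted p = 0.0771), with the replicate block (-1.0, adjusted p = 0.0676), without both libraries that stood apart (-1.01) and when 5 of the 6 libraries were left out in turn (-1.14 to -0.91 over all 6). Ihh and Pth1r passed with array weights (-0.68 and -1.03) and with the length trend removed (-1.03 and -1.61). Pth1r passed by voom with the 0.1 FPKM filter (-1.69), as did Sox9 (-3.15) and Sox5 (-1.72). Voom was not run with libraries left out. Fits that could not include genes under 1 FPKM gave no value for Sox9, Sox5 and Gli1. Of the list counts 175 of 494 moved by over 1.5 times.

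Same-numbered libraries are not known to be paired: their deviations from the group means correlated at -0.493, -0.27 and 0.158. With the replicate block 127 genes, 0 members and 13 list genes passed. Depth limits Ihh, Sox9, Sox5, Gli1, Pthlh and Hhip in MIR29cb2-KO libraries, where counts of 0 to 33 reads stand behind a value.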
